A study of Fragaria x ananassa with 6 samples.

Results

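The genes described here are FaGAST1, FaIAA33 and FaNCED3, strawberry genes whose symbols refer to gibberellin, auxin or abscisic acid, and FaGRAS1, whose symbol names only the GRAS family. The rule that picks them uses their symbols and no measured value, although it was set with earlier results of these arrays known. They are 4 of 35117 features and were read by 5 probes on 8 of the 61657 spots that are not controls. Floral buds of Fragaria × ananassa, the cultivated strawberry, were the source of RNA. Buds of plants transformed with pK7WG2-FaPRE1, which overexpress FaPRE1 (FaPRE1-OX, with the bud phenotype given as elongated), were compared with buds of plants that carry the empty vector (control, with the phenotype given as normal). Each group had 3 samples, and each of 3 arrays took 1 control and 1 FaPRE1-OX sample in different dyes. pK7WG2 is a binary vector made for constitutive overexpression. In which cells of the buds the transgene was expressed was not measured. The labels give neither the age of the buds nor whether the 3 FaPRE1-OX samples come from separate transgenic lines, so the p-values reflect no more than the variation among these 6 samples, part or all of which may be technical. Floral organ identity genes were searched among the 45 gene symbols of the array and 0 were found, so the tissue could not be checked by its markers.

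Gibberellins act through the degradation of DELLA proteins, a subgroup of the GRAS family of regulators, and GAST1-type genes, first described in tomato, encode small cysteine-rich peptides whose transcripts accumulate after gibberellin treatment. Auxin acts through Aux/IAA proteins, repressors that are marked for degradation when auxin brings them to an F-box receptor of the SCF class of ubiquitin ligases. Abscisic acid is made from carotenoids, and the cleavage by 9-cis-epoxycarotenoid dioxygenase (NCED) is the step that usually limits the rate. PRE proteins are small helix-loop-helix regulators without a DNA-binding region, and in Arabidopsis they promote cell elongation downstream of gibberellin and brassinosteroid.

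The quality of the arrays can be given in a few values. Between 57.7% and 67.4% of spots were well above background in a sample, a flag set by the scanner software, and FaPRE1-OX 3 had the lowest share. The log2 signals of all tested genes correlated at 0.996 between FaPRE1-OX 1 and 2, while FaPRE1-OX 3 correlated with them at 0.959 and 0.957. The controls correlated with each other at 0.994 to 0.996. The FaPRE1-OX over control ratios of arrays 1 and 2 correlated at 0.963 across the 23387 tested genes, and their mean correlated with array 3 at 0.641. FaPRE1-OX 3 thus stood apart from the other FaPRE1-OX samples, and the results of the tested genes are given by array and also without the third array.

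FaPRE1, the gene of the construct, was higher in every FaPRE1-OX sample than in all controls. Controls 1, 2 and 3 had log2 signals of 6.09, 6.64 and 6.37, whereas FaPRE1-OX 1, 2 and 3 had 8.59, 8.74 and 8.04. The 6 FaPRE1-OX readings were well above background, against 1 of 6 control readings, so that 1 of 3 controls had a measured level and the size of the difference rests on control values at the limit of measurement. FaPRE1 met the filter for testing, well above background in at least 3 of 6 samples, through the FaPRE1-OX samples. Its p-values are therefore no separate support for a difference. The log2 ratios of 2.50, 2.10 and 1.67 had a fitted value of 2.09 ± 0.23 (SE, n = 3 arrays), and limma gave an adjusted p of 0.0644 when the dye was a term of the fit and of 0.00815 when it was not. The size and the call of FaPRE1 also moved with the background correction and the centring in fits with the dye term. They were 2.74 (limma adjusted p 0.0381) at offset 16, 5.43 (0.0260) with processed signals and 2.25 (0.0438) with median centring, fits that called 3.85%, 6.11% and 4.73% of all tested genes. The direction was the same in each. The fit behind the adjusted p of 0.0644 called 0 of 23387 genes at an adjusted p under 0.05 (0% called), with 6765 genes at an unadjusted p under 0.05. The fit behind 0.00815, by limma without the dye term, called 5293 genes (22.6% called).

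FaGAST1, of the gibberellin-stimulated family named after tomato GAST1, was bright in every sample and differed widely among the FaPRE1-OX samples. It lay far above the control in FaPRE1-OX 1 and 2 and below the control in FaPRE1-OX 3. Controls 1, 2 and 3 had log2 signals of 12.12, 12.16 and 11.67. FaPRE1-OX 1, 2 and 3 had 13.45, 13.58 and 11.0. FaPRE1-OX 1 and 2 were therefore the highest of the 6 samples and FaPRE1-OX 3 the lowest, with all controls in between, and the groups overlapped. The control mean was 11.99 ± 0.27 (SD, n = 3) and the FaPRE1-OX mean 12.68 ± 1.45 (SD, n = 3). In the processed signal, FaGAST1 was at percentiles 93.5 to 94.6 of all probes in the controls. It reached percentiles 98.1 and 98.3 in FaPRE1-OX 1 and 2 and was at 90.5 in FaPRE1-OX 3.

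**Figure D1:**
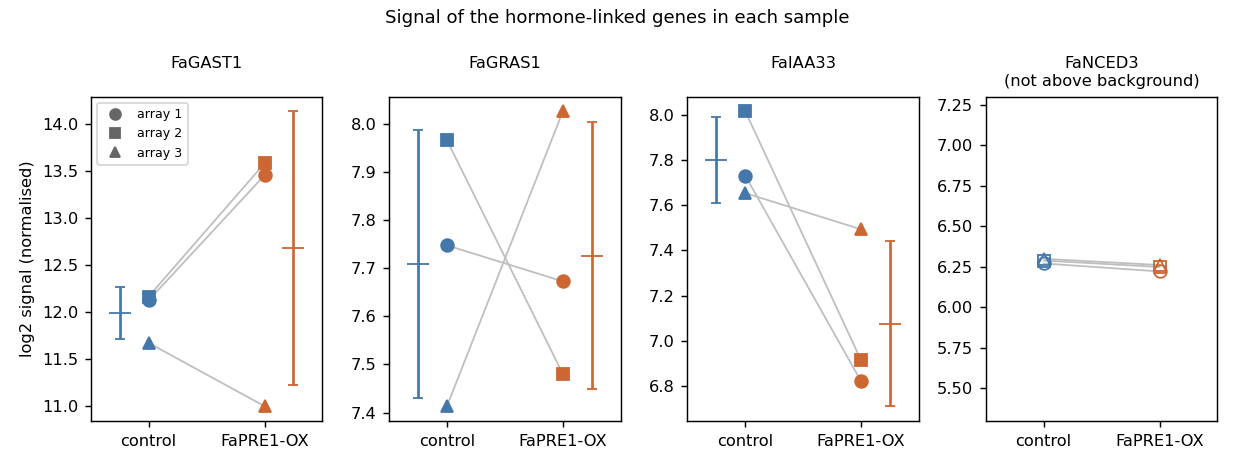
Log2 signal (y axis, after loess and quantile normalization) of the 4 genes in each control (blue) and FaPRE1-OX (orange) sample, with grey lines joining the samples of 1 array and bars giving the mean ± SD of 3 samples; each panel has its own scale. FaGAST1 runs from 11.0 to 13.58 in FaPRE1-OX against 11.67 to 12.16 in the controls, FaIAA33 does not overlap between groups, and FaNCED3 (open symbols) had 0 of 12 readings well above background.

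The 2 spots of the FaGAST1 probe, FragP00002508, read the same way. All 12 readings were well above background, and none was flagged as non-uniform or as an outlier. On array 1 the log2 ratios of FaPRE1-OX over control were 1.30 and 1.36 at the 2 spots. Array 2 gave 1.39 and 1.44. Array 3 gave -0.63 and -0.72. The spots of a probe thus differed by at most 0.09, while array 3 minus the mean of arrays 1 and 2 was -2.04. Averaged over spots, FaGAST1 was 2.51-fold and 2.67-fold higher in FaPRE1-OX on arrays 1 and 2, and 1.59-fold lower on array 3. The differences are present in the scanner values before any normalization. In Cy3 the median intensity of the 2 spots was 7895 and 9827.5 in FaPRE1-OX 1 but 1575 and 1104.5 in FaPRE1-OX 3. The controls beside them, both in Cy5, read 6585 and 7975 on array 1 and 4286 and 3156.5 on array 3. Arrays 1 and 3 had the same dye orientation, and array 2 the opposite one.

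The fitted difference of FaGAST1 was 0.87 ± 0.49 (SE, n = 3 arrays) on the log2 scale, with a 95% interval from -0.61 to 2.35 and an adjusted p of 0.327 by limma with the dye term. Without the dye term it was 0.69 ± 0.47 (SE), with an adjusted p of 0.336 by limma. The exact two-sided permutation test over the 6 samples, which ignores the pairing by array, gave p = 0.4. The smallest value that 3 against 3 samples allow is 0.1. The standard error was larger than that of 98.6% of the tested genes. Arrays 1 and 2 alone, of opposite dye orientation, gave 1.37 ± 0.08 (SE) and a limma adjusted p of 1.44e-08, in a fit that called 59.6% of all tested genes. Without array 1 or array 2 the limma adjusted p was 0.777 or 0.760, in fits that called 0 of 23387 genes. The calls of these fits thus differed for the tested genes at large, and the contrast is not particular to FaGAST1. Over the alternatives in processing the adjusted p of FaGAST1 ran from 1.44e-08 to 0.777. FaPRE1 was also lowest in FaPRE1-OX 3 among the FaPRE1-OX samples, at 8.04 against 8.59 and 8.74, but was still above every control, and its part in the FaGAST1 result was not tested.

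**Figure D2:**
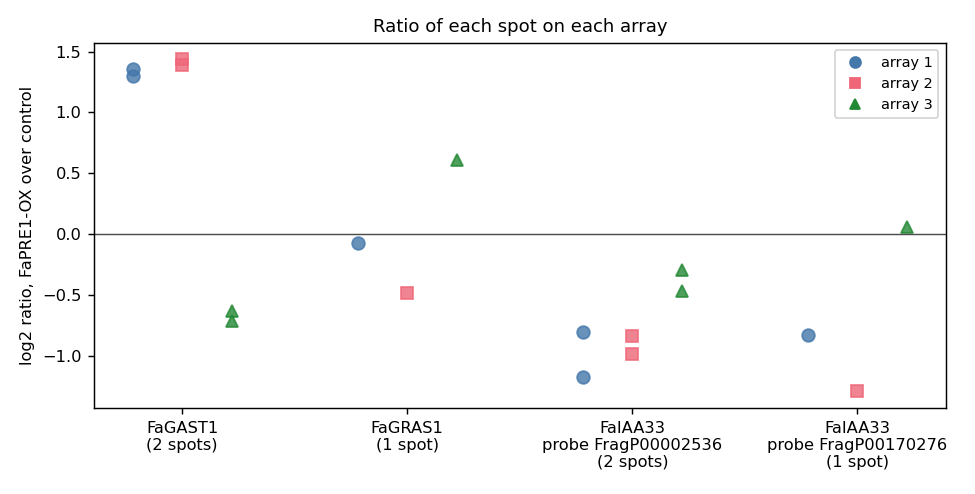
Log2 ratio of FaPRE1-OX over control (y axis) at every spot of the 4 probes that were well above background, by array. The 2 FaGAST1 spots agree on each array, from 1.30 to 1.44 on arrays 1 and 2 and at -0.63 and -0.72 on array 3, and the 2 FaIAA33 probes have opposite signs on array 3.

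A change of sign on the third array was common, but few tested genes had one as large as FaGAST1. Above the control on arrays 1 and 2 and below it on array 3 were 2719 tested genes (11.6%). The mirrored pattern was seen in 2867 (12.3%). A log2 ratio of at least 1 on both arrays 1 and 2 was seen for 608 of 23387 genes (2.60%). Of these, 64 genes (10.5% of the 608) were below the control on array 3, and 14 genes, FaGAST1 included, were at least as low there as FaGAST1. A step from arrays 1 and 2 down to array 3 at least as large as that of FaGAST1 was seen in 32 tested genes (0.137%). In either direction there were 294 such genes (1.26%). Among the symbols of the array, the ratios most like those of FaGAST1 over the 3 arrays belonged to FaDVL1, at a Euclidean distance of 1.41 in log2 units, and to FaANR1, at 1.59. FaDVL1 had ratios of 0.81, 0.81 and 0.49, so the nearest symbol did not share the sign on array 3. As many as 1347 tested genes were at least as near to FaGAST1 as FaDVL1 was. These counts describe the arrays and were made after the FaGAST1 values were known. They were made at offset 50, which shrinks ratios of dim probes, and were not repeated among genes as bright as FaGAST1.

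**Figure D3:**
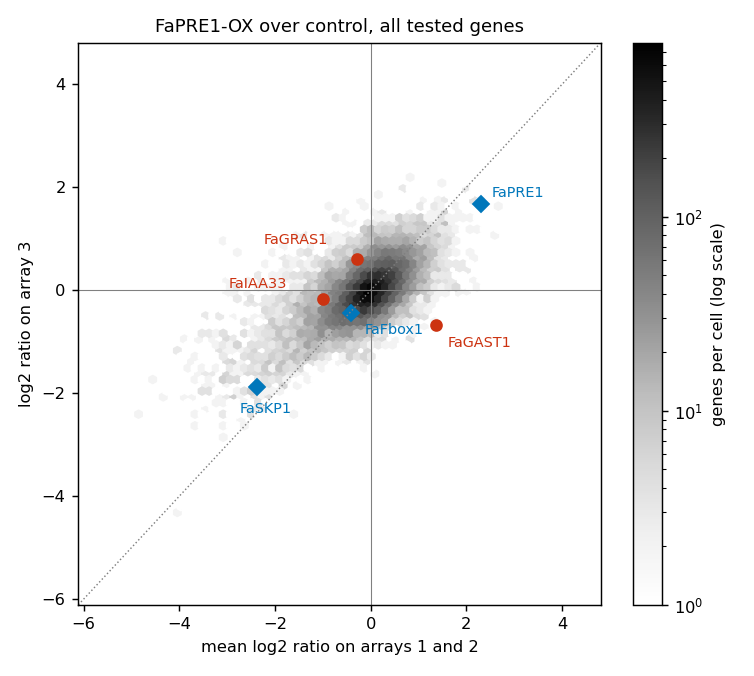
Mean log2 ratio of FaPRE1-OX over control on arrays 1 and 2 (x axis) against the log2 ratio on array 3 (y axis) for the 23387 tested genes, with grey shade for genes per cell on a log scale and a dotted line of equal ratios. FaGAST1 (1.37 and -0.67) lies at the lower right edge of the cloud, whereas FaGRAS1 and FaIAA33 (red) lie above the dotted line, and FaPRE1, FaSKP1 and FaFbox1 are shown in blue.

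FaGRAS1 carries the name of the GRAS family, which in Arabidopsis holds the DELLA repressors of gibberellin response and other regulators. The symbol does not say to which subgroup it belongs. It showed no common direction. Its log2 signal was 7.75, 7.97 and 7.41 in controls 1, 2 and 3. In FaPRE1-OX 1, 2 and 3 it was 7.67, 7.48 and 8.03. The highest and the lowest of the 6 values thus came from the same array, the third, and the groups overlapped almost fully, with means of 7.71 ± 0.28 and 7.73 ± 0.28 (SD, n = 3 each). The gene was read by 1 spot of 1 probe, so no duplicate spot could be compared. All 6 readings of it were well above background, with a median intensity of 158 to 299 over a local background of 37 to 87.

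The log2 ratios of FaGRAS1 were -0.07, -0.48 and 0.61 on arrays 1, 2 and 3. That is 1.05-fold and 1.40-fold lower in FaPRE1-OX on the first 2 arrays and 1.53-fold higher on the third. By limma the difference was -0.11 ± 0.20 (SE, n = 3 arrays) with the dye term, with a 95% interval from -0.70 to 0.49 and an adjusted p of 0.748. Without the dye term it was 0.02 ± 0.23 (SE), with an adjusted p of 0.964. The exact permutation p was 1. The interval leaves out a change of 2-fold in either direction under this fit, but it does not show that the groups are alike. Leaving out the third array gave -0.28 ± 0.10 (SE) and a limma adjusted p of 0.0286 (59.6% of all tested genes called). Without the first or the second the FaGRAS1 difference was 0.06 or 0.27, with limma adjusted p-values of 0.938 and 0.535 (0% of all tested genes called). Its step between the first 2 arrays and the third, 0.89, was reached or passed by 2057 tested genes (8.80%). The symbol nearest to it was FaTT12, at a distance of 0.40 with ratios of -0.30, -0.26 and 0.37. FaDioxy2 came next, at 0.62, and 317 tested genes were at least as near as FaTT12.

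FaIAA33, which bears the name of the Aux/IAA repressors, was the only tested member with 1 direction on all arrays, by the mean of its 2 probes. The same sign on all 3 arrays was common, with 60.6% of tested genes, and 32.2% were below the control on all 3. In Arabidopsis, IAA33 is a non-canonical member of the Aux/IAA family, without the domain through which auxin receptors bind. The log2 signal of FaIAA33, averaged over its 2 probes, was 7.73, 8.01 and 7.65 in controls 1, 2 and 3. It was 6.82, 6.91 and 7.49 in FaPRE1-OX 1, 2 and 3. All FaPRE1-OX samples were below all controls, with means of 7.08 ± 0.36 and 7.80 ± 0.19 (SD, n = 3 each). FaPRE1-OX 3 came within 0.16 of control 3. Groups that do not overlap were common on these arrays, with 45.7% of tested genes, and 25.2% with FaPRE1-OX lower. In bulk RNA of whole buds, fewer cells that express a gene and less transcript per cell cannot be told apart.

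The log2 ratios of FaIAA33 were -0.91, -1.10 and -0.16, which is 1.88-fold, 2.15-fold and 1.12-fold lower in FaPRE1-OX. By limma with the dye term the difference was -0.82 ± 0.21 (SE, n = 3 arrays), or 1.76-fold lower, with a 95% interval from -1.45 to -0.19. Its adjusted p of 0.130 did not pass the threshold of 0.05. Without the dye term it was -0.72 ± 0.21 (SE) with an adjusted p of 0.0769 by limma. The exact permutation p over the 6 samples was 0.1, the smallest that 3 against 3 samples allow. That test ignores the pairing by array. The call differed in fits of separate channels. These also differ from the ratio fit in normalization and in residual degrees of freedom, so the part of the pairing was not tested. With the channels fitted separately and no replicate block, the limma adjusted p was 0.0470 (18.1% of all tested genes called), and with the array as a random block it was 0.0327 (24.8% called). It was 0.0924 with no replicate block and 75th percentile scaling of single channels (20% called). Leaving out the third array gave -1.01 ± 0.09 (SE) and a limma adjusted p of 4.67e-07 (59.6% of all tested genes called). Without array 1 or array 2 the difference was -0.63 or -0.54, with limma adjusted p-values of 0.350 and 0.310 (0% of all tested genes called). Over the alternatives in processing, the difference ran from -1.33 to -0.54, below the control in all 18, and the adjusted p from 4.67e-07 to 0.350.

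The 2 probes of FaIAA33 agreed on arrays 1 and 2 and not on array 3. Probe FragP00002536, with 2 spots, had ratios of -0.99, -0.91 and -0.38. Its spots read -1.17 and -0.81 on array 1, -0.84 and -0.99 on array 2, and -0.47 and -0.30 on array 3. By this probe the groups did not overlap, with 7.84 ± 0.12 in the control and 7.08 ± 0.42 in FaPRE1-OX (SD, n = 3 each). Probe FragP00170276, with 1 spot, had ratios of -0.83, -1.29 and 0.06. Its log2 signal was 7.58, 8.32 and 7.36 in the controls and 6.75, 7.03 and 7.42 in FaPRE1-OX, so that FaPRE1-OX 3 was above control 3 and the groups overlapped. All 18 readings of the 2 probes were well above background, although the dimmest was 32 above its local background. Fitted alone, the probes gave -0.80 ± 0.18 and -0.84 ± 0.24 (SE), with limma adjusted p-values of 0.115 and 0.146. The files hold no probe sequences, so whether both probes match the same transcript was not tested.

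A weaker ratio on the third array was not particular to FaIAA33. Of the 1978 tested genes with ratios at or below -0.91 on both arrays 1 and 2, 367 (18.6%) were at or above the FaIAA33 value on array 3. The symbols nearest to FaIAA33 over the 3 arrays were FaDioxi1, at a distance of 0.33 with ratios of -0.81, -0.80 and -0.25, and FabHLH1, at 0.39. FabHLH1 names a basic helix-loop-helix regulator. As near as FaDioxi1 were 256 tested genes, and as near as FabHLH1 were 377.

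**Figure D4:**
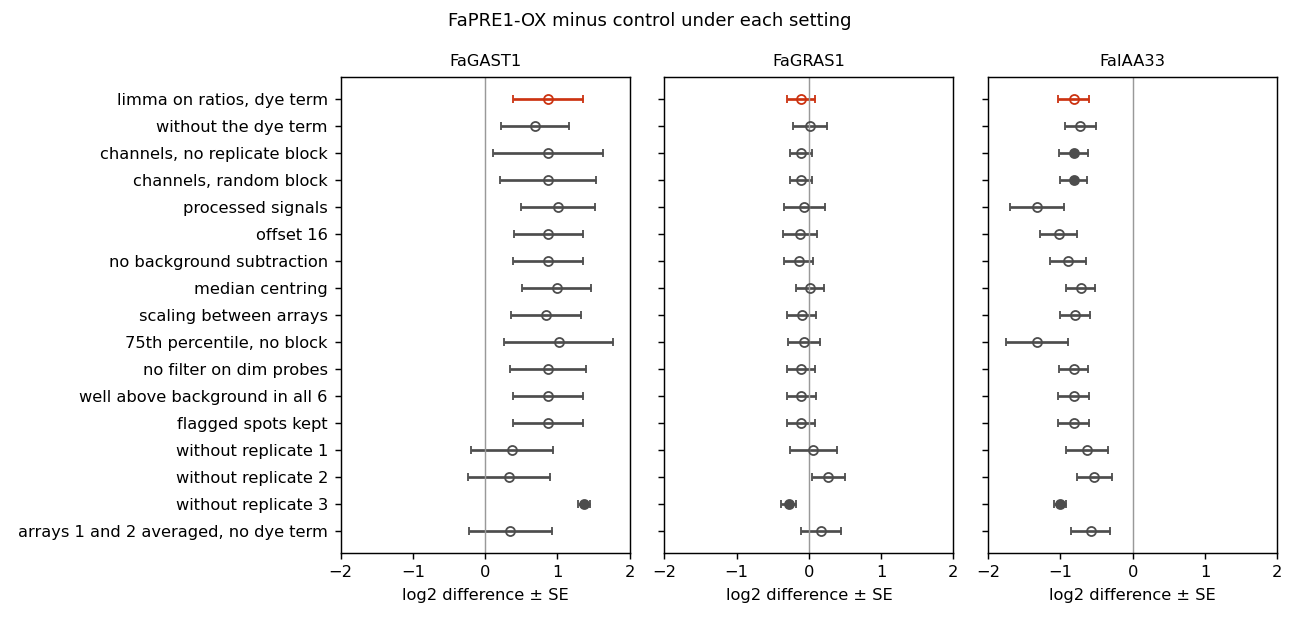
Log2 difference of FaPRE1-OX minus control ± SE (x axis) for the 3 tested genes under each way of processing (rows), with the limma fit with a dye term in red, filled symbols for an adjusted p under 0.05 and open symbols for the rest. FaGAST1 stays above 0 and FaIAA33 below 0 in every row, FaGRAS1 lies on both sides of 0, and all 3 genes are filled without replicate 3, where 59.6% of all tested genes were called.

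FaNCED3, named after the NCED enzymes of abscisic acid synthesis, gave no level that could be compared. In Arabidopsis, NCED3 is the family member induced by water deficit. None of its 12 readings (2 spots of probe FragP00002609 in 6 samples) was well above background. Its median intensity was 43 to 58 in Cy3, over a local background of 37 to 44.5. In Cy5 it was 73.5 to 83 over 68 to 83. The difference from background was thus between -5.5 and 18.5. Between 30.7% and 40.8% of the 35337 probes had no spot well above background in a sample, and FaNCED3 was among these in every sample. Its normalised log2 signal was 6.22 to 6.30 in all 6 samples, a span of 0.08. The SD between duplicate spots was 0.13 to 0.15 by array, for duplicate probes of any brightness. That SD is not one of levels per sample of dim probes, so it does not show whether the span is spot noise. No fold is given, and the gene was not tested.

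A weaker criterion of the scanner software, by which it calls a spot positive and significantly above background, separated the FaNCED3 readings by group. It was met by 4 of 6 control readings, 1 or 2 in each control, and by 0 of 6 FaPRE1-OX readings. The criterion did not follow the difference from local background. That difference was 3 to 18.5 in the 4 control readings that met it and -2.5 to 13.5 in the FaPRE1-OX readings. Of 6151 probes with 2 spots that were never well above background, 61 (0.992%) met it in every control and in no FaPRE1-OX sample. The mirrored pattern was seen in 17 probes (0.276%). In FaPRE1-OX 3 only 33.4% of such dim probes met it, against 46.5% to 52.8% in the other 5 samples. Of the 3 controls, 2 were labelled with Cy5 and 1 with Cy3. The part of dye, or of the low share of dim probes that met the criterion in FaPRE1-OX 3, in these FaNCED3 readings was not tested. Absence of FaNCED3 transcript from the buds is not shown by these values.

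**Figure D5:**
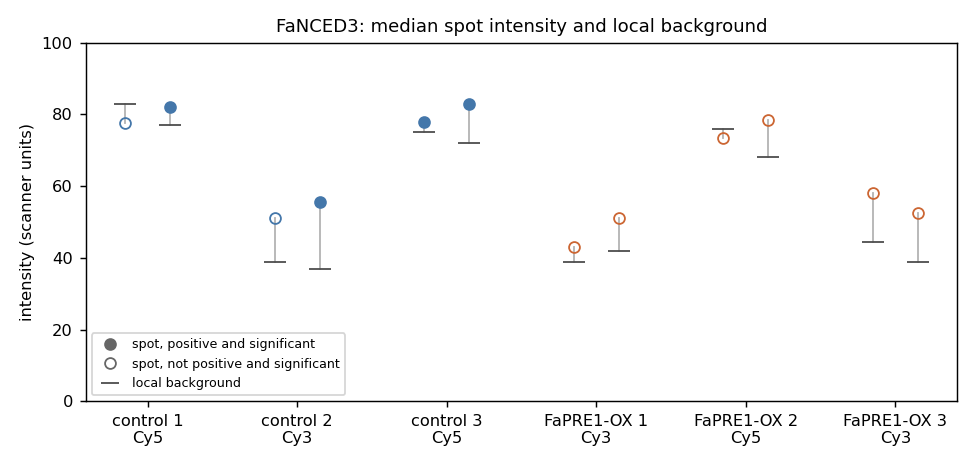
Median intensity of the 2 FaNCED3 spots (circles, scanner units on the y axis, from 0) and their local background (dashes) in each sample, with the dye under its name. Spot minus background is between -5.5 and 18.5; filled circles mark the 4 readings, all in controls, that were positive and significant.

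Other genes of these pathways were looked for among the 45 symbols by the names of gibberellin, auxin and abscisic acid enzymes, receptors and regulators. The search found 3 symbols, and 0 of them besides the members. FaSKP1 and FaFbox1 name parts of SCF ubiquitin ligases, the adaptor SKP1 and a substrate-binding F-box protein. This is the class to which the auxin receptors and, in Arabidopsis and rice, the F-box proteins that mark DELLA repressors belong. FaSKP1 read 9.25, 9.02 and 9.21 (log2) in the 3 controls, against 6.92, 6.60 and 7.32 in FaPRE1-OX. Its difference was -2.26 ± 0.15 (SE, n = 3 arrays), and the limma adjusted p was 0.0591 with, and 0.00553 without, the dye term. With the dye term, FaSKP1 was at -3.38 (limma adjusted p 0.0260) with processed signals, at -2.68 (0.0368) at offset 16, at -2.16 (0.0408) with median centring and at -2.24 (0.0483) with scaling between arrays, where 1.04% of all tested genes were called. FaFbox1 read 7.75, 7.49 and 7.58 in the controls and 7.06, 7.34 and 7.14 in FaPRE1-OX, a difference of -0.36 ± 0.13 (SE) with limma adjusted p-values of 0.187 and 0.0857, and of 0.0397 with the array as a random block. Both lay below the control on all 3 arrays, as did 32.2% of all tested genes. Leaving out the third array gave limma adjusted p-values of 7.23e-11 for FaSKP1, 0.00604 for FaFbox1 and 6.06e-10 for FaPRE1 (59.6% of all tested genes called). With the first or the second left out, their limma adjusted p-values were 0.0828 to 0.431, in fits that called 0 of 23387 genes. Of FaPRE1, FaSKP1 and FaFbox1, 0 of 3 passed limma with the dye term and 2 of 3 passed without it, FaPRE1 above and FaSKP1 below the control. Of the 3 tested hormone-linked genes, 0 passed either fit, beside 0% and 22.6% of all tested genes.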

How the data were processed

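Each sample's group, number, array and dye come from its labels. The titles of FaPRE1-OX samples carry the token PRE3 where other labels name FaPRE1, and the latter were followed. The authors deposited scanner output with linear spot intensity, local background intensity and processed signals, extracted with Agilent Feature Extraction 10.7 per the labels (10.7.3.1 per the file headers), together with other columns that are yes or no flags. The 3 arrays were on 1 slide in 1 scan, so there was no slide or scan batch. The hormone-linked genes were picked by symbol and the lists by name, but both were chosen with earlier results of these data known.

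R 4.3.3 was used, with the packages limma 3.58.1 and statmod 1.5.0. Normexp (offset 50, which shrinks ratios of dim probes) served as background correction, followed by loess normalization of the log2 ratios of each array. Flagged spots were left out. Probe values are means of spots, and gene values means of probes. A gene was tested where a probe had a spot well above background in at least 3 of 6 samples. The ratio was fitted by lmFit and eBayes with the dye orientation as a term (two-sided test, adjustment after Benjamini-Hochberg over 23387 genes, threshold 0.05), which leaves 1 residual degree of freedom, against 2 without that term. Array 2, the only one with the control in Cy3, weighs as much in the dye-term fit as the other 2 arrays together. Levels per sample are after quantile normalization of average intensity. Percentiles are of the processed signal among the probes of a channel. The number of arrays limits the precision. The fits were tested on simulated data.

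The labels put the control and FaPRE1-OX samples of 1 number on 1 array. Such pairs deviated together from their group means (r = 0.168, 0.179 and 0.135), against r of -0.196 to 0.072 for other samples, and the ratio fit holds this pairing as a block. Members and other named symbols are reported whatever their values, and for each tested member the 2 nearest symbols by Euclidean distance of the 3 ratios. In a reference gene table, 0 members matched, and genome positions are not given. Alternatives covered the dye term, the block, background, normalization, filters, flags and each replicate left out.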

Additional observations from a re-analysis of the deposited data

How the results depend on the processing

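FaGAST1 stayed above and FaIAA33 below the control under all alternatives, at 0.33 to 1.37 and -1.33 to -0.54. All alternatives reuse the same 3 arrays. With FaGAST1 ratios of 1.33, 1.41 and -0.67, a mean of any 2 or of all 3 is above 0. With FaIAA33 ratios of -0.91, -1.10 and -0.16 it is below 0. The constant signs are thus no separate support for a difference. FaIAA33 passed the threshold with no replicate block (-0.82) and with the array as a random block (-0.82). FaGRAS1 turned to 0.0174 without the dye term, to 0.0140 with median centring and to 0.17 with the first 2 arrays averaged as 1 replicate, an alternative chosen after seeing the data, as were the single FaIAA33 probes. With 1 replicate left out in turn and no dye term, the ranges were 0.33 to 1.37 for FaGAST1, -0.28 to 0.27 for FaGRAS1 and -1.01 to -0.54 for FaIAA33. Each passed the threshold only without replicate 3, where 59.6% of all tested genes were called, against 0% without replicate 1 or 2. The step of FaGAST1 from arrays 1 and 2 to array 3 was -2.76 to -2.04.

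The number of genes past the threshold was 0 with the dye term but 5293 without it, 4238 with no replicate block, 5810 with a random block, 4679 with 75th percentile scaling of single channels, 900 at offset 16, 244 after scaling between arrays, 1107 after median centring, 1428 with processed signals, and 0 to 13945 with 1 replicate left out. The cause was not tested. With no background subtraction, other filters or flagged spots kept, it was 0. Dim signals limit FaNCED3 in all samples and FaPRE1 in the controls.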
